A study of Mus musculus with 14 samples.

Results

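Oligodendrocytes were the 1243 nuclei that the deposited annotation calls oligodendrocytes, of 31324 nuclei from brain vascular fragments. The control library held 603 of its 16649 nuclei in this class, and the *Cdh5CreER;Tgfbr1 CKO/-* (CKO) library 640 of its 14675. Vascular fragments were pelleted through Ficoll, a step that leaves a layer of myelin at the top of the tube, and nuclei from pooled brains were captured with PIPseq, a particle-templated emulsion method that counts RNA molecules by unique molecular identifiers (UMIs). CKO mice carried 1 floxed and 1 null allele of *Tgfbr1*, the type I TGF-beta receptor, together with an endothelial CreER transgene (named VEcadCreER in the sample descriptions) activated with 4-hydroxytamoxifen (4HT) between postnatal days 3 and 5. The control is described as wild type, but the study uses that word for phenotype and its retinal controls were mostly *Cdh5CreER;Tgfbr1 CKO/+* or the *Tgfbr2* equivalent, so the genotype of the brain control is uncertain, and its 4HT treatment is not stated. The study's methods place the mice at P14, whereas the series description calls them young adults. Cre under the *Cdh5* promoter acts in endothelial cells (ECs) throughout the body and not in oligodendrocytes, so in CKO oligodendrocytes the floxed allele was not the target of Cre, while the null allele is carried by all cells. With 1 library per genotype nothing could be tested between genotypes, and a difference between genotypes cannot be told apart from one between libraries or pools. All intervals given are at 95% and reflect counting error alone.

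Oligodendrocytes arise from oligodendrocyte precursor cells (OPCs), pass through committed and newly formed stages, and then wrap axons with compact myelin. During the early postnatal weeks the mouse brain holds all of these stages at once, because myelination is still under way. OPCs migrate along blood vessels, and TGF-beta and BMP signals are known to influence how the lineage matures. Newly formed cells transcribe *Bmp4*, *Neu4* and *Enpp6*, whereas *Mog*, *Mag* and *Mobp* accompany the assembly of the sheath and *Hapln2*, *Anln* and *Apod* mark mature cells.

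Markers of the lineage were high in these nuclei. *Mbp*, which encodes myelin basic protein, was detected in 97.8% of control and 98.8% of CKO oligodendrocyte nuclei, at 10961 and 11854 CPM (UMIs of a gene per 1000000 UMIs of the class). *Mog*, a glycoprotein of the outermost myelin surface, was at 1105 CPM in control and 1230 CPM in CKO, against 5.87 and 1.98 CPM in astrocytes. *Mag*, an adhesion molecule of the membrane next to the axon, was at 1086 and 1330 CPM, against 5.76 and 9.58 CPM in OPCs. Of the oligodendrocyte nuclei, 92.7% in control and 88.6% in CKO held at least 3 of 8 oligodendrocyte markers, among them *Mbp*, *Mog*, *Mag*, *Mobp*, *Cnp*, *Cldn11* and *Ermn*. Another annotated class, Glut_20, shared these genes: 252 of its control nuclei and 100 of its CKO nuclei held at least 3 of the 8, with *Mbp* at 1522 and 1461 CPM. *Mog* was found in 28.3% of its control nuclei and had 0 UMIs in its CKO nuclei. Of all remaining classes, 188 control and 140 CKO nuclei held at least 3 of the 8. Glut_20 nuclei were not counted as oligodendrocytes here.

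Markers of other cell types were present in a minority of oligodendrocyte nuclei. All 8 neuron markers had UMIs, summing to 407 CPM in control and 421 CPM in CKO against 13707 and 15215 CPM in the other nuclei, and 81 control and 28 CKO nuclei held at least 1 such UMI. The most abundant was *Meg3*, a long noncoding RNA of neurons, with 253 UMIs in 32 control nuclei and 258 UMIs in 23 CKO nuclei. The other 7 neuron markers had 379 and 49 UMIs (244 and 67.3 CPM), lower in CKO. All 7 astrocyte markers had UMIs, at 177 and 210 CPM in sum, led by the bicarbonate cotransporter gene *Slc4a4*. The summed level of neuron markers was thus similar in both libraries only with *Meg3* included. All 6 OPC markers had UMIs, 860 in control and 606 in CKO (554 and 832 CPM, ratio 1.5, interval 1.35 to 1.67), in 174 and 148 nuclei, led by *Lhfpl3*. Of these UMIs, 739 lay in the newly formed-like cluster of 246 nuclei and 639 in the cluster led by neuronal genes, both described below. All 7 endothelial markers had UMIs, but they summed to 105 UMIs in control and 3 UMIs in CKO (67.7 and 4.12 CPM, ratio 0.0608, interval 0.0123 to 0.183), in 14 and 3 nuclei, led by the transcription factor gene *Mecom* at 46 and 3. The choroid plexus and ependyma markers went the other way, at 51 and 112 UMIs (32.9 and 154 CPM, ratio 4.68, interval 3.33 to 6.65), nearly all of them *Ttr*, with 1 of the 6 markers at 0. Fibroblast markers had 0 UMIs in control and 17 in CKO, in 3 nuclei, led by *Col1a2*, with 1 of 5 at 0. Microglial markers had 11 and 1 UMIs, led by *P2ry12*, with 2 of 6 at 0, mural markers 28 and 12, led by *Pdgfrb*, with 2 of 7 at 0, and erythroid markers 13 and 17, led by *Hbb-bs*, with none of 4 at 0. What these UMIs contribute to the genotype ratios of oligodendrocytes was examined by leaving out the nuclei that carry them (OPC markers aside), which left 472 control and 564 CKO nuclei. The number of genes at least 2-fold lower in CKO moved from 408 of 2572 tested to 232 of 1880. The part of the smaller number of genes tested in this change was not tested.

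Oligodendrocytes of the libraries differed in depth. Control nuclei held a median of 2328 UMIs (quartiles 1264 and 3548.5) and 831 genes, and CKO nuclei 954.5 UMIs (quartiles 673.5 and 1388) and 383 genes, whereas the medians over all nuclei were 1541 and 1395 UMIs. In total, oligodendrocytes carried 1551112 UMIs in control and 728425 in CKO, with at least 1 UMI of 13586 and 10969 genes. CKO oligodendrocytes were thus shallower than control oligodendrocytes, as was the case in 19 of the 21 annotated classes, oligodendrocytes included.

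Within each library, genes of early stages fell with depth, whereas mature genes did not rise with it. Nuclei were ranked by UMIs and divided into tertiles with median depths of 938, 2328 and 4107 UMIs in control and 584, 955 and 1628 UMIs in CKO. The 9 precursor genes together fell from 4671 CPM in the shallowest tertile of control nuclei to 1495 and 622 CPM in the middle and deepest tertiles, and from 4594 to 1324 and 1203 CPM in CKO. Committed and newly formed genes went from 25114 to 18972 and 10121 CPM in control and from 30298 to 19709 and 12473 CPM in CKO. Both libraries thus showed the same order, with early genes most abundant in the nuclei that held the fewest UMIs. *Bmp4*, a secreted ligand made by newly formed cells, was at 320, 103 and 15.8 CPM from shallow to deep in control and at 304, 155 and 15.1 CPM in CKO. *Sox6*, a transcription factor that keeps precursors immature, was at 2300, 816 and 132 CPM in control and 2153, 597 and 295 CPM in CKO. *Bcas1*, which marks newly myelinating cells, was at 5138, 3234 and 1312 CPM in control and 6050, 3434 and 1493 CPM in CKO. Mature genes together were at 1650, 1684 and 1559 CPM from shallow to deep in control and 1969, 2003 and 1855 CPM in CKO. Myelin protein genes also changed far less with depth, between 28127 and 30663 CPM over the tertiles in control and between 29547 and 35402 CPM in CKO. Precursor genes were at similar levels in the shallowest tertiles of both libraries and higher in CKO in the deepest. Median depths differed between libraries in each of these comparisons. Among nuclei of 400 to 800 UMIs in both libraries, the median log2 ratio of CKO to control of precursor genes with at least 20 UMIs was 0.44. It was -1.35 at 700 to 1200, -1.97 at 1200 to 2000 and -1.04 at 2000 to 4000 UMIs, hence lower in CKO there.

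**Figure D1:**
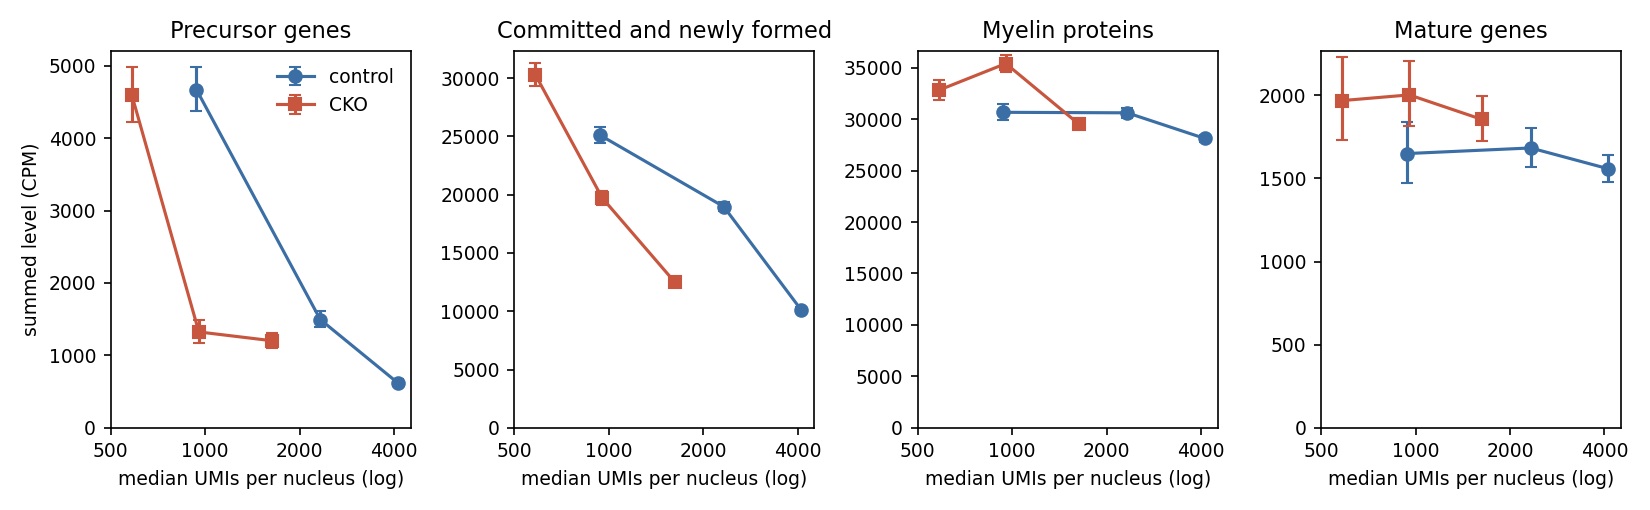
Summed level of 4 gene lists in CPM (vertical axis) in oligodendrocyte nuclei of each depth tertile, placed at the tertile's median UMIs per nucleus (horizontal axis, log scale), for control (circles) and CKO (squares), with exact Poisson 95% intervals of counting error as bars. Precursor genes start at 4671 CPM in control and 4594 CPM in CKO and fall with depth in both, while myelin protein genes stay between 28127 and 35402 CPM.

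The early stage could also be read from single nuclei. A UMI of *Bmp4*, *Neu4* (a sialidase) or *Gpr17* (a receptor of committed precursors) was found in 139 control nuclei (median 2007 UMIs) and 97 CKO nuclei (median 742 UMIs), a selection made after the values of these genes had been seen. Each gene described next was not used in the selection and differed between nuclei with and without these UMIs in the same direction in both libraries. *Tnr*, an extracellular matrix glycoprotein, was at 6849 CPM in control nuclei with an early UMI and 1150 CPM in those without, and at 13193 and 1509 CPM in CKO. *Fyn*, a kinase that starts myelin gene translation at the axon contact, was at 4257 and 886 CPM in control and 6557 and 1048 CPM in CKO. *Enpp6*, a choline phosphodiesterase, was at 999.9 and 356 CPM in control and 1796 and 479 CPM in CKO. These 3 genes were higher in the early nuclei of both libraries. *Mog* was at 549 CPM with and 1253 CPM without an early UMI in control, and at 298 and 1357 CPM in CKO. *Mobp*, a small protein of compact myelin, was at 2788 and 5294 CPM in control and 1465 and 5831 CPM in CKO. *Trf*, the iron carrier transferrin, was at 129 and 727 CPM in control and 126 and 807 CPM in CKO. Sheath and mature genes were thus lower in the early nuclei, whereas the summed level of transcription factor genes of the lineage was alike with and without an early UMI, at 11897 and 11567 CPM in control and 14166 and 13603 CPM in CKO. Members of this sum went both ways. *Nkx2-2* was at 110 CPM with and 13.1 CPM without an early UMI in control, and at 217 and 23.4 CPM in CKO. *Prox1* was at 98.1 and 211 CPM in control and 34.3 and 218 CPM in CKO. The early nuclei of CKO were shallower than those of control, and the part of depth in their levels was not tested.

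**Figure D2:**
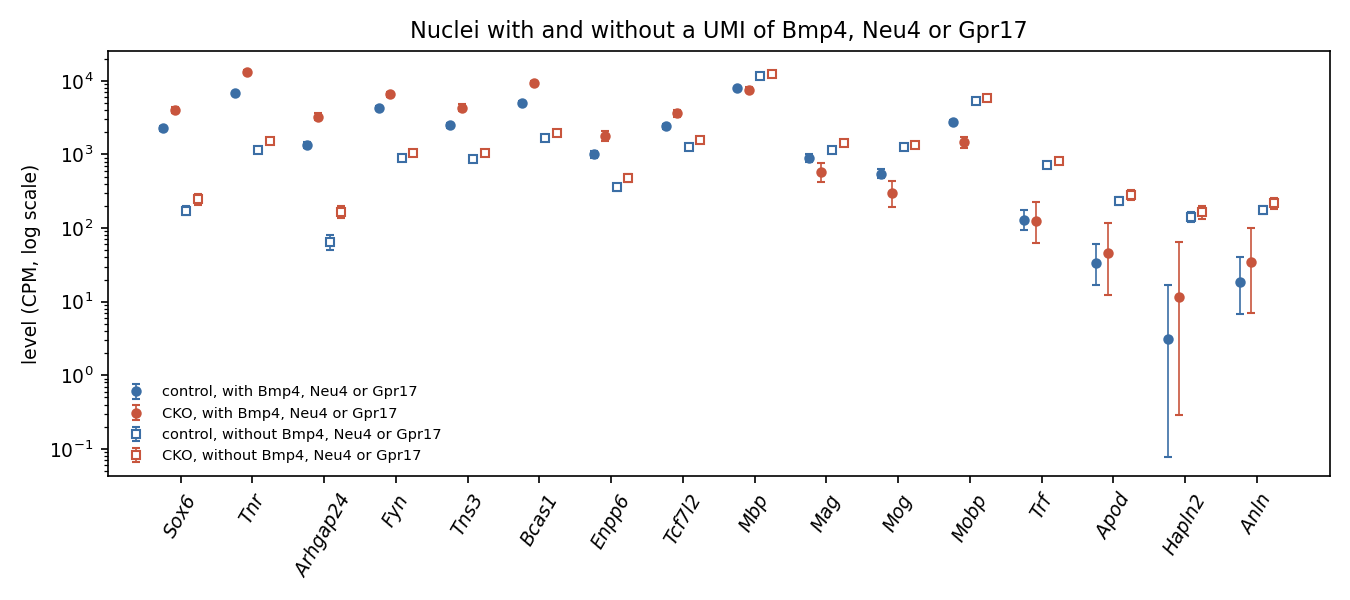
Level in CPM (vertical axis, log scale) of stage genes in oligodendrocyte nuclei with (filled circles) and without (open squares) a UMI of *Bmp4*, *Neu4* or *Gpr17*, in control (blue) and CKO (red), with exact Poisson 95% intervals of counting error as bars. *Tnr* is at 6849 CPM with and 1150 CPM without such a UMI in control, and *Mog* at 549 and 1253 CPM.

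Oligodendrocytes made up 3.62% of nuclei in control (interval 3.34 to 3.92) and 4.36% in CKO (4.04 to 4.70). The order depended on how the nuclei were counted. Among nuclei with at least 1000 UMIs the shares were 4.65% and 3.34%, and by the marker rule, which also takes in Glut_20 nuclei, 6.00% and 5.50%, so no direction is given for the share. The number of oligodendrocyte nuclei per OPC nucleus was 1.51 in control (603 to 400, interval 1.33 to 1.71) and 3.08 in CKO (640 to 208, interval 2.63 to 3.62), and 2.51 and 5.14 among nuclei with at least 1000 UMIs. This quotient was higher in the CKO library under both counts. Every nucleus in the files held at least 199 genes, and 12% of control and 28.4% of CKO OPC nuclei held fewer than 250 genes, against 6.14% and 14.1% of oligodendrocyte nuclei. OPCs thus sat closer to the lower limit than oligodendrocytes, more so in CKO, and what a limit on genes does to the quotient was not tested.

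Stage markers were also counted per nucleus after each nucleus was thinned to 500 UMIs, which left out 13 control and 46 CKO nuclei. A UMI of at least 1 of 8 newly formed markers was then found in 62.4% of control nuclei (interval 58.3 to 66.3) and 68.0% of CKO nuclei (64.1 to 71.8). Without thinning the shares were 87.2% and 84.7%, the reverse order. In astrocytes, which do not belong to the lineage, the thinned shares were 33.1% and 41.8% (median depths before thinning 1195.5 and 705 UMIs, against 2385.5 and 1003 UMIs in oligodendrocytes) and the libraries differed by more than in oligodendrocytes. In OPCs the thinned shares were 57.6% and 61.2%. Thinned to 1000 UMIs, which left out 109 and 342 nuclei, the shares were 74.3% and 80.2% in oligodendrocytes and 52.9% and 53.2% in astrocytes, where the libraries then hardly differed. In OPCs they were 76.1% and 69.0% at this depth, the reverse order, with overlapping intervals. Mature markers, of which 9 were offered, were found in 34.6% of control nuclei (30.7 to 38.6) and 39.2% of CKO nuclei (35.3 to 43.3), against 9.08% and 9.59% in astrocytes and 1.69% and 1.44% in OPCs. The unthinned shares of mature markers were 55.9% and 50.0% (320 of 640 nuclei). Thinned to 1000 UMIs they were 44.5% (40.1 to 49.0) and 54.0% (48.2 to 59.8), against 20.8% and 22.0% in astrocytes. The intervals of the libraries overlapped for both marker groups at 500 UMIs, and the order of the unthinned shares was the reverse.

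Across genes, the ratio of CKO to control CPM was taken for the 2572 genes with at least 100 UMIs over both libraries, and a gene was called at a ratio of at least 2 or at most 0.5. In oligodendrocytes 17 genes (0.661%) were at least 2-fold higher and 408 genes (15.9%) at least 2-fold lower in CKO, around a median log2 ratio of -0.06. The lower calls were mostly of sparse genes, since 395 of the 408 had fewer than 500 UMIs, and their median was 145 UMIs against 247 for all tested genes. The minimum of 100 UMIs was set on the sum of both libraries, of which control held 1551112 UMIs and CKO 728425. A sparse gene high in control alone thus passed at a lower CPM than one high in CKO alone. What this adds to the lower calls was not tested. Among the 1032 genes with 100 to 200 UMIs the median log2 ratio was -0.40 and 295 were called lower, whereas among the 247 genes with 1000 to 3000 UMIs it was 0.19 and 1 was called lower. Of the 408, 3 (0.735%) were also at least 2-fold lower in all other nuclei summed, near the share among all tested genes (22, 0.855%), and their median log2 ratio there was 0.04. OPCs had 90 higher (8.17%) and 99 lower calls (8.99%) among 1101 genes, and astrocytes 49 higher (2.18%) and 204 lower (9.09%) among 2244. These classes were also shallower in CKO, at median UMIs of 986 and 616.5 in OPCs and 1150.5 and 578.5 in astrocytes. CP_8, at 1721 and 666 UMIs per nucleus, had 191 of 4482 genes lower (4.26%), and GABA_9, at 3495 and 1408 UMIs, had 69 of 4557 (1.51%). The part of depth in the lower calls was not tested.

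A slope with abundance also appeared between shallow and deep nuclei within a library. For genes with 100 to 200 UMIs the median log2 ratio of the shallowest over the deepest tertile was -1.12 in control and -1.52 in CKO, and for genes with 1000 to 3000 UMIs it was 0.22 and 0.15. Comparing nuclei of 1000 to 2000 UMIs, 150 in control and 245 in CKO, gave median log2 ratios of 0.10 for both of these ranges of abundance, so the slope was not seen there. That range was chosen after seeing the data. Of 5 ranges looked at, the other 4 gave medians for genes with 100 to 200 UMIs of -0.12 (400 to 800 UMIs), 0.01 (700 to 1200), 0.18 (1200 to 2000) and 0.08 (2000 to 4000). In the range of 1000 to 2000 UMIs, 18 of 803 genes were at least 2-fold higher and 96 lower. Of the 408 genes lower in all nuclei 6 had enough UMIs to be tested there, and 5 of these were lower. Of the 14 members of the precursor and newly formed lists tested there 6 (42.9%) were lower, against 11.96% of all genes tested there. The range lies below the median depth of control nuclei (2328 UMIs) and above that of CKO nuclei (954.5 UMIs). Ratios are given below for all nuclei and, where they part, for nuclei of 1000 to 2000 UMIs. Scaling with TMM factors, an alternative to class totals, raised every log2 ratio by 0.15.

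**Figure D3:**
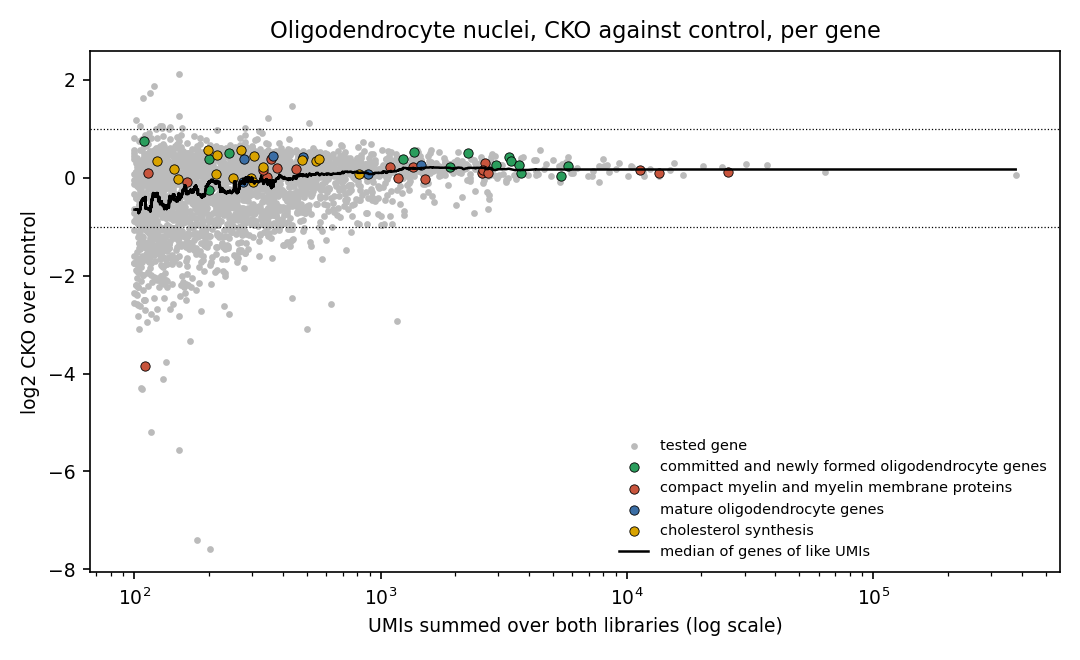
log2 ratio of CKO to control CPM in oligodendrocyte nuclei (vertical axis) against UMIs summed over both libraries (horizontal axis, log scale) for each tested gene other than *Xist*, with 4 gene lists in color, the running median of genes of like UMIs as a line and the 2-fold limits dotted. Sparse genes reach far below the lower limit, with a median of -0.40 for 100 to 200 UMIs, and 1 of the colored points, *Ndrg1*, is past a limit.

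The summed levels of committed and newly formed genes (ratio 1.197, 1.17 to 1.22) and of precursor genes (1.30, 1.21 to 1.39) were higher in CKO over all nuclei, but the median log2 ratio of each list was below 0 among nuclei with at least 1000 UMIs. None of the 15 committed and newly formed genes, all of them tested, was called in either direction, against 0.661% higher and 15.9% lower over all tested genes, and their median log2 ratio was 0.33 against -0.06. *Bmp4* was at 80.6 CPM in control and 104 CPM in CKO (ratio 1.29, interval 0.96 to 1.74), and *Enpp6* at 491 and 637 CPM (1.30, 1.15 to 1.46). *Itpr2*, an intracellular calcium channel of newly formed cells, was at 1364 and 1719 CPM (1.26, 1.17 to 1.35). *Gpr17* had the lowest ratio of the list, 92.8 and 78.3 CPM (0.843, 0.609 to 1.15). The list's median was above 0 over all nuclei, but turned to -0.19 among nuclei with at least 1000 UMIs and to -0.54 over 11 members among nuclei of 1000 to 2000 UMIs, with *Bmp4* at a ratio of 0.165 and *Enpp6* at 0.470. Over the other 4 ranges of depth the median of members with at least 20 UMIs went from 0.05 among nuclei of 400 to 800 UMIs to -0.99 among nuclei of 2000 to 4000 UMIs. Of 9 precursor genes, 6 were tested and none was called, with a median of 0.40 over all nuclei, -0.24 among nuclei with at least 1000 UMIs and -1.80 over 3 members among nuclei of 1000 to 2000 UMIs. *Pdgfra*, the growth factor receptor of OPCs, was near the detection limit at 6 and 11 UMIs, and *Vcan*, a chondroitin sulfate proteoglycan of OPCs, was at 143 and 195 CPM (1.36, 1.10 to 1.69).

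Myelin protein genes were nearly level. Of 21 members 19 were tested, 0 were called higher and 1 lower (15.9% over all tested genes), with a median log2 ratio of 0.11, and their summed level was 29198 CPM in control and 31764 CPM in CKO (ratio 1.09, interval 1.07 to 1.11). *Mbp* had a ratio of 1.08 (1.05 to 1.11), *Mog* of 1.11 (1.03 to 1.21) and *Mag* of 1.22 (1.13 to 1.33). *Cldn11*, the claudin that seals myelin lamellae, was at 515 and 511 CPM (0.991, 0.874 to 1.12). The median was 0.14 among nuclei of 1000 to 2000 UMIs, and over the other 4 ranges of depth it lay between -0.19 and 0.15, a narrower span than that of the newly formed genes. The member called lower was *Ndrg1*, which encodes a cytoplasmic protein, with 107 UMIs in 93 control nuclei and 3 UMIs in 3 CKO nuclei (69.0 and 4.12 CPM, ratio 0.0597, interval 0.0121 to 0.179).

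Mature genes were sparse. Of 15 members 6 were tested and 0 called (0.661% higher and 15.9% lower over all tested genes), with a median log2 ratio of 0.33 over all nuclei and 0.23 over 4 members among nuclei of 1000 to 2000 UMIs. *Apod*, an apolipoprotein of mature cells, was at 191 CPM in control and 255 CPM in CKO (1.34, 1.11 to 1.61), and *Anln*, a scaffold of septin filaments in myelin, at 144 and 196 CPM (1.37, 1.10 to 1.69). *Hapln2*, a matrix link protein of nodes of Ranvier, was at 112 and 146 CPM (1.30, 1.02 to 1.67). *Klk6*, a protease of late oligodendrocytes, had 3 UMIs in each library, and *Ptgds*, a prostaglandin synthase, 0 and 3. *Klk6* and *Ptgds* were thus at or under the floor of 3 counts in both libraries, and no fold is given.

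Lipid synthesis genes had medians above 0 in all nuclei and in each alternative that gave a value. Of 18 cholesterol synthesis genes 16 were tested and 0 called, where 15.9% of all tested genes were lower and 0.661% higher, with a median log2 ratio of 0.28 and a sum of 2215 CPM in control and 2648 CPM in CKO (1.196, 1.13 to 1.26). *Sqle*, squalene epoxidase, was at 75.4 and 111 CPM (1.47, 1.10 to 1.97). Of 12 genes for myelin lipids and sphingolipids 8 were tested and 0 called, with a median of 0.32. *Fa2h*, which hydroxylates the fatty acids of galactolipids, was at 424 and 577 CPM (1.36, 1.2 to 1.54), and *Ugt8a*, which adds the galactose, at 1021 and 1150 CPM (1.13, 1.04 to 1.23). Among nuclei of 1000 to 2000 UMIs the medians were 0.39 over 4 cholesterol genes and 0.19 over 6 lipid genes.

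Of 16 transcription factors of the lineage 10 were tested, 0 were called higher and 1 lower (0.661% and 15.9% of all tested genes), with a median log2 ratio of 0.23 that turned to -0.04 among nuclei with at least 1000 UMIs. *Sox10*, which specifies the lineage, was at 418 CPM in control and 483 CPM in CKO (1.16, 1.01 to 1.32), and *Myrf*, the activator of myelin genes, at 236 and 270 CPM (1.15, 0.959 to 1.37). *Klf9*, a hormone-responsive factor, was the lower one, at 69.0 and 32.9 CPM (0.478, 0.293 to 0.749). Of 11 genes for axon contact and adhesion 10 were tested, with 0 higher, 1 lower (beside the same 15.9%) and a median of 0.07, which turned to -0.01 among nuclei with at least 1000 UMIs, -0.17 among nuclei of 1000 to 2000 UMIs and -0.05 relative to genes of like abundance. *Nfasc*, the neurofascin of paranodal junctions, was at 4370 and 5110 CPM (1.17, 1.12 to 1.22). The lower member was *Unc5b*, a netrin receptor, at 110 and 54.9 CPM (0.498, 0.344 to 0.706). *Nrcam*, a cell adhesion molecule, and *Adgrb3*, an adhesion receptor, were at ratios of 0.570 and 0.606, short of the call. Of 11 growth factor and lipid receptors 6 were tested and 0 called, with a median of 0.17. *Erbb3*, a neuregulin receptor, was at 99.3 and 144 CPM (1.45, 1.12 to 1.87), whereas the sparse insulin receptor gene *Insr* had 52 and 5 UMIs (0.205, 0.0638 to 0.509), too few to be tested.

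*Tgfbr1* had 56 UMIs in 47 control oligodendrocyte nuclei and 24 UMIs in 23 CKO nuclei (36.1 and 32.9 CPM, ratio 0.913, interval 0.541 to 1.497). Its level in ECs, where Cre acts, was 69.1 CPM in control and 62.9 CPM in CKO, and whether the counted reads cover the floxed sequence is not stated, so neither level checks the genotype. *Tgfbr2*, the type II receptor, had 3 and 0 UMIs, both at or under the floor of 3 counts. Of 21 genes of the TGF-beta and BMP pathway 3 were tested, with 0 higher, 1 lower (over all tested genes 0.661% and 15.9%) and a median log2 ratio of 0.28 that turned to -0.65 at a minimum of 50 UMIs. The list's sum was 688 CPM in control and 644 CPM in CKO (0.936, 0.838 to 1.04). *Smad7*, an inhibitory SMAD that TGF-beta and BMP signals induce, was at 357 and 432 CPM (1.21, 1.05 to 1.39) and was the most abundant member. *Bmpr1a*, a type I BMP receptor, was the member called lower, at 88.3 and 34.3 CPM (0.389, 0.243 to 0.598). Among nuclei of 1000 to 2000 UMIs its ratio was 1.18, but it had fewer than 100 UMIs there and was not tested. Other receptors of the list were sparser, such as *Acvr1* at 80 and 6 UMIs and *Bmpr2* at 50 and 10, with ratios of 0.160 and 0.426.

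Lists for signals and stress had few UMIs. Of 14 hypoxia and glycolysis genes 2 were tested and 1, the phosphofructokinase gene *Pfkp*, was lower (90 and 11 UMIs, 0.260, 0.125 to 0.488), where 15.9% of all tested genes and 295 of the 1032 with 100 to 200 UMIs were lower, with a sum of 289 CPM in control and 211 CPM in CKO. *Vegfa*, the hypoxia-induced ligand of endothelial receptors, was at 22.6 and 22.0 CPM (0.973, 0.503 to 1.81). Of 22 interferon response and MHC class I genes 1, *Stat2*, was tested and not called, with a sum of 124 and 57.7 CPM (0.466, 0.325 to 0.653). *Stat2* held 109 of the 192 UMIs of this sum in control and 36 of 42 in CKO, and 12 of the 22 members were at 0. In the other nuclei the sum was 175 CPM in control and 277 CPM in CKO. Of 10 injury and disease-associated genes 1, *Sulf2*, was tested and not called, with a sum of 149 and 148 CPM. Of 7 glucocorticoid response genes 3 were tested and 0 called, with a median log2 ratio of 0.16 (-0.08 at a minimum of 50 UMIs) and a sum of 318 and 303 CPM, while the untested *Fkbp5*, a co-chaperone of the glucocorticoid receptor, had 80 and 6 UMIs and *Per1*, a clock gene, 3 and 18. No member of 4 lists was tested: WNT targets summed to 92.8 and 119 CPM, the unfolded protein and integrated stress response to 27.7 and 6.86 CPM, immediate early genes to 17.4 and 13.7 CPM, and proliferation genes to 9.03 and 2.75 CPM (14 and 2 UMIs), against 67.9 and 149 CPM in the other nuclei. These 4 lists held too few UMIs for more than their sums.

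The genes with the highest ratios were few, and some are genes of other cell types. *Ttr*, the thyroid hormone carrier made by the choroid plexus, had 50 UMIs in 6 control nuclei and 102 UMIs in 18 CKO nuclei (32.2 and 140 CPM, ratio 4.34, interval 3.07 to 6.22), with 31 UMIs in 1 CKO nucleus. *Htr2c*, a serotonin receptor of choroid plexus and neurons, had 44 UMIs in 4 and 76 UMIs in 11 nuclei (3.68, 2.51 to 5.46). *Meg3* had a ratio of 2.17 (1.82 to 2.59), with its UMIs in 32 and 23 nuclei. It was also higher in CKO in 18 of the 20 other classes and lower in 2. *Ttr*, *Htr2c* and *Meg3* came from a small part of the oligodendrocyte nuclei. None of them had a UMI left without the nuclei that carried markers of other cell types, *Ttr* and *Meg3* being such markers themselves. Genes spread over more nuclei were *Gm10701*, a long noncoding RNA gene (chromosome 9, 24252943 to 24330005, plus strand, GRCm39), at 29.0 and 97.5 CPM in 32 and 46 nuclei (3.36, 2.28 to 5.00), and *Sh3gl1*, an endophilin of vesicle uptake, at 45.8 and 110 CPM in 61 and 72 nuclei (2.40, 1.72 to 3.35). *Alk*, a receptor tyrosine kinase, was at 92.8 and 187 CPM (2.01, 1.58 to 2.56), and 1.07 in the other nuclei, but was short of the call at 1.54 with nuclei weighted equally, 1.97 without nuclei carrying other cells' markers and 1.83 without those carrying neuron markers. *Apbb1*, *Zfp579*, *Eml2* and *B3gntl1* were called with ratios of 2.02 to 2.26, but *Zfp579* and *Eml2* fell short at 1.82 and 1.94 without other cells' markers and 1.89 and 1.85 without neuron markers, and *Zfp579* at 1.95 among nuclei with at least 3 of 8 oligodendrocyte markers. *Cachd1*, *Trim59*, *Igf2bp2*, *Ankrd39* and *Cpox* completed the 15 genes with the highest lower bound, at ratios of 1.66 to 1.98. Of the 15, *Ttr* and *Meg3* were on the marker lists of other cell types.

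Some of the genes with the lowest ratios were at or near 0 in CKO, whereas others, such as *Grik1*, were not. *Slc6a6*, the taurine transporter (chromosome 6, 91660573 to 91736047, plus strand, GRCm39), had 203 UMIs in 125 control nuclei and 0 in CKO, at least 31.8-fold lower against a floor of 3 counts over the class. *Pakap.1*, a readthrough of adjoining genes for a lipid-modified protein and a kinase anchor, had 180 UMIs in 93 control nuclei and 0 in CKO, at least 28.2-fold lower. *Ptprb*, the vascular endothelial receptor phosphatase, had 151 UMIs in 69 control nuclei and 1 in CKO, under the floor of 3 counts. The interval of its ratio reached up to 0.0798. These 3 genes were expressed in other cells of the CKO library: over all other nuclei summed their ratios were 1.64, 1.11 and 0.861. The sum for *Slc6a6* was led by ECs, at 2165 CPM in control and 2607 CPM in CKO, and of the 20 other classes it was higher in CKO in 7 and lower in 13, among them astrocytes (55.8 and 21.8 CPM) and Glut_1 (64.8 and 10.2 CPM). Endothelial markers were also lower in CKO oligodendrocytes, at 105 and 3 UMIs. *Ndrg1* (chromosome 15, 66801166 to 66841835, minus strand, GRCm39) had a ratio of 1.79 in the other nuclei summed, being higher in CKO in 7 classes and lower in 8. *Slc8a1*, a sodium and calcium exchanger, was at 308 and 35.7 CPM (0.116, 0.0750 to 0.172), and *Grik1*, a kainate receptor subunit (chromosome 16, 87692788 to 88087153, minus strand, GRCm39), at 375 and 61.8 CPM (0.165, 0.119 to 0.224), with ratios of 0.986 and 1.21 in the other nuclei summed. In OPCs *Grik1* was lower in CKO too, at 526 and 345 CPM, and of the 20 other classes it was higher in 8 and lower in 11. *Elmod1*, *Stard9*, *Exoc6*, *Olfm3*, *Gtdc1*, *Ssbp2*, *Oxr1* and the unnamed ENSMUSG00000095041 were also among the 15 lowest, at ratios of at most 0.180. Of these, *Elmod1* and *Exoc6* were under the floor of 3 counts in CKO, so no lower end of the range is given.

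For *Grik1*, *Ndrg1*, *Slc8a1* and *Slc6a6*, picked from the 15 with the lowest ratios, the levels by depth were as follows. *Grik1* was at 360, 471 and 327 CPM in the shallowest, middle and deepest tertiles of control nuclei and at 16.0, 63.0 and 75.5 CPM in CKO. *Ndrg1* was at 91.4, 68.5 and 64.2 CPM in control and had 0, 0 and 3 UMIs in CKO. *Slc8a1* was at 168, 253 and 367 CPM in control and 24.0, 19.4 and 47.8 CPM in CKO. *Slc6a6* rose with depth in control from 25.4 to 98.5 and 171 CPM, while CKO had 0 UMIs in each tertile. Without the nuclei that carried markers of other cell types, *Olfm3* went from 130 and 4 UMIs to 5 and 1 (interval of the ratio 0.00754 to 3.19), so most of its control UMIs were in those nuclei. *Slc6a6* then had 123 UMIs in control and 0 in CKO and *Ptprb* 73 and 0, and the other genes of the 15 had ratios of at most 0.0973, that of *Grik1*. The part of RNA from other cells in the nuclei left was not tested.

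Among the 628 genes with at least 500 UMIs, a limit chosen after seeing the data, 1 was at least 2-fold higher (*Meg3*) and 13 lower. Genes with high ratios short of the call were *Abca2*, a lipid transporter of oligodendrocytes, at 225 CPM in control and 369 CPM in CKO (1.64, 1.39 to 1.93), *Ninj2*, an adhesion protein, at 253 and 404 CPM (1.59, 1.37 to 1.86), and *Cldn14*, a claudin, at 604 and 901 CPM (1.49, 1.35 to 1.65). *Arhgap24*, a GTPase activator, was at 333 and 538 CPM (1.61, 1.41 to 1.84) over all nuclei but at a ratio of 0.266 among nuclei of 1000 to 2000 UMIs, below 1 as with *Bmp4* and *Enpp6*. Among the 13 lower genes were *Slc8a1*, *Grik1*, *Xist* and *Enox1*, the last at 323 and 102 CPM (0.315, 0.243 to 0.402) and *Hecw2*, a ubiquitin ligase, at 400.4 and 143 CPM (0.357, 0.287 to 0.440). *Nrg1*, a ligand of ERBB receptors, was at 324 and 133 CPM (0.411, 0.328 to 0.512). The most abundant transcripts were all near 1: *Malat1*, a nuclear RNA, at 163544 and 170685 CPM (1.04, 1.04 to 1.05), *Pcdh9*, a protocadherin, at 27211 and 29587 CPM (1.09, 1.07 to 1.10), and *Qk*, an RNA-binding regulator of myelin splicing, at 10164 and 11793 CPM (1.16, 1.13 to 1.19). *Tmeff2*, *Nkain2*, *Pde4b*, *Lsamp*, *Frmd4a* and *Erbb4* ranged from 1.04 to 1.24, and with *Mbp* they completed the 10 most abundant.

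Sex-linked genes are given apart. *Xist*, the RNA that silences an X chromosome in females, had 6815 UMIs in 439 control oligodendrocyte nuclei and 0 in CKO, at least 1067-fold lower. The Y-linked *Uty* was at 108 CPM in control and 251 CPM in CKO (2.33, 1.88 to 2.90), *Eif2s3y* at 123 and 339 CPM (2.75, 2.27 to 3.34) and *Kdm5d* at 28.4 and 87.9 CPM (3.10, 2.08 to 4.66), while the sparser *Ddx3y* was at 27.7 and 27.5 CPM (0.990, 0.552 to 1.72). The control pool thus held nuclei of both sexes and the CKO pool of males only by these genes, and sex and genotype cannot be told apart. Of the 17 higher calls, 3 were these Y-linked genes.

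Clustering of the oligodendrocyte nuclei, with sex-linked genes left out, gave 7 clusters of 130 to 246 nuclei, which are described here without comparing their sizes between genotypes. The largest, 246 nuclei from both libraries (116 control and 130 CKO), raised 6 of 8 newly formed markers, with *Neu4* and *Bmp4* among its 10 leading genes, and 3 of 6 precursor markers, and is called newly formed-like. In a cluster of 191 nuclei (97 and 94), also newly formed-like, 4 of the 8 were raised, with *Rras2* and *Cnksr3* among the leading genes beside *Casr*, a calcium-sensing receptor, and *Cemip2*. This second cluster had 0 UMIs of *Bmp4* and of *Neu4* in both libraries, and *Mag* at 1760 CPM in control and 1925 CPM in CKO. The first had *Mog* at 107 CPM in control and 51.1 CPM in CKO and the second at 472 and 476 CPM, so both libraries held an earlier and a later step. A cluster of 203 nuclei (32 and 171) raised 5 of 9 mature markers, with *Hapln2* and *Anln* among its leading genes, and is called mature-like, though with most nuclei from CKO it may be that library. *Mog* was at 2367 CPM in its control nuclei and 1920 CPM in its CKO nuclei. A further mature-like cluster raised 6 of 9, with *Plin3*, *Ndrg1* and *Grik1* leading, and 136 of its 137 nuclei were control, so that it may be that library. The cluster of 173 nuclei (29 and 144) led by *Rasal1*, *Opalin* and *Erbb3* and the cluster of 130 (93 and 37) led by *Tmod1* and *Ttr* raised at most 1 marker of a list and are not named. The last, 163 nuclei (100 and 63) at a median of 2691 UMIs, was led by neuronal genes such as *Ryr2* and *Gpr158*. It raised 4 of 8 neuron, 3 of 7 astrocyte, 3 of 6 precursor, 1 of 7 endothelial (*Flt1*) and 0 of 8 oligodendrocyte markers. It is not named either, and it held 915 of the neuron marker UMIs given above (632 in control and 307 in CKO over all oligodendrocyte nuclei). Of the endothelial marker UMIs (105 and 3 over all oligodendrocyte nuclei) it held 85, and of the OPC marker UMIs (860 and 606) it held 639. The newly formed-like cluster of 246 nuclei held 739 of the OPC marker UMIs.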

How the data were processed

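Nuclei of brain vascular fragments were profiled in 1 control and 1 CKO library. The deposited matrix holds UMI counts. To produce it the authors ran PIPseeker, removed background with CellBender and doublets with SOLO, and took out mixed nuclei by hand, so no doublet caller was run here. The authors' annotation gave the cell types and barcode suffixes the libraries, which share 2 barcodes, neither of them an oligodendrocyte in either library. The submitters' processing notes list mm10 and Seurat, whereas the study's methods name GRCm39. Gene positions are from GENCODE on GRCm39, matched by symbol. Retina files hold no oligodendrocyte class and were not used.

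UMIs were summed per class and library and divided by the class total. Ratios carry exact conditional binomial intervals, shares exact Clopper-Pearson intervals and levels exact Poisson intervals. Log2 ratios used 0.5 UMIs as pseudocount. The 18 gene lists hold 241 symbols, 1 of them matched through an older symbol in the RefSeq table. Named genes are *Tgfbr1* and *Tgfbr2*, *Mbp*, *Mog* and *Mag*, list members, the 15 genes with the highest lower bound and the 15 with the lowest upper bound of the ratio's interval among genes with at least 100 UMIs, the 10 most abundant, and 10 leading genes per cluster by fold among genes in at least 10% of nuclei. Sex-linked genes were kept apart from the 15. Genes named for the early nuclei (*Tnr*, *Fyn*, *Arhgap24*) and for at least 500 UMIs (*Abca2*, *Ninj2*, *Cldn14*, *Enox1*, *Hecw2*, *Nrg1*) were chosen after their values were seen. Nuclei were clustered with scanpy 1.11.5 and igraph 0.11.9 from 2000 variable genes with UMIs in at least 10 nuclei, 20 principal components and 15 neighbors, at resolution 0.5 on counts scaled to 10000 per nucleus. Markers were taken as raised when at least 2-fold over the other oligodendrocyte nuclei and in at least 5% of the cluster. TMM factors came from edgeR 4.0.16 in R 4.3.3. The remaining work was done in Python 3.11.15 with pandas 2.3.3, scipy 1.17.1, numpy 2.4.6 and, for plots, matplotlib 3.10.9. The ratio and its interval were tested on simulated data. Alternatives covered the annotation against marker genes, depth, nuclei with other cells' markers, weighting of nuclei, thinning, TMM, the UMI minimum and the cluster resolution. The range of 1000 to 2000 UMIs (the last of 5 ranges looked at), the minimum of 500 UMIs, ratios relative to genes of like abundance and leaving out nuclei with neuron markers were chosen after seeing the data, as were the early nuclei. The members and lists were chosen with earlier results of these data known.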

Additional observations from a re-analysis of the deposited data

Results flagged for a closer look

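*Ttr* was at least 2-fold higher in CKO oligodendrocytes (ratio 4.34, interval 3.07 to 6.22) and at least 2-fold lower in the other nuclei of the CKO library summed (ratio 0.458, 120609 UMIs in control and 34707 in CKO). Most of those UMIs were in CP_8, with 91753 in control and 27893 in CKO, where the level was 40364 and 38980 CPM in 902 and 595 nuclei. Of the 20 other classes, *Ttr* was higher in CKO in 3, among them astrocytes (187 and 386 CPM), and lower in 17, among them OPCs (248 and 62.2 CPM) and ECs (1113 and 472 CPM). It was picked out because its ratio was at least 2 in oligodendrocytes and at most 0.5 in the sum over other nuclei, and the difference between them was not tested. No other of the 15 highest and 15 lowest genes passed both limits in opposite directions.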

How the results depend on the processing

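No paired analysis was possible because the libraries come from different pools of mice and there is 1 per genotype. No single gene whose ratio was recomputed passed the 2-fold limit in both directions, but the order of some shares and the sign of some list medians turned, as given here. The share of nuclei, 3.62% in control and 4.36% in CKO, became 6.00% and 5.50% with marker genes in place of the annotation, 4.65% and 3.34% among nuclei with at least 1000 UMIs, and 4.46% and 5.51% without vascular nuclei. Oligodendrocytes per OPC became 2.51 and 5.14 among nuclei with at least 1000 UMIs. The number of genes at least 2-fold higher, 17, became 27 with TMM, 9 without nuclei carrying other cells' markers, 3 after thinning to 500 UMIs, 60 and 4 at minimums of 50 and 200 UMIs, and 28 with nuclei weighted equally. The number lower, 408, became 250 among nuclei with at least 1000 UMIs, 232 without other cells' markers, 28 after thinning, and 899 and 113 at minimums of 50 and 200 UMIs. It became 322 with TMM, 390 among nuclei with at least 3 of 8 markers and 553 with nuclei weighted equally. Of the alternatives chosen after seeing the data, 1000 to 2000 UMIs gave 96 lower, a minimum of 500 UMIs 1 higher and 13 lower, leaving out nuclei with neuron markers 237 lower, and ratios relative to genes of like abundance 78 higher and 254 lower. Stricter minimums, thinning and fewer nuclei also left fewer genes to test. For the other changes the cause was not tested.

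The median log2 ratio of precursor genes, 0.40, became -0.24 among nuclei with at least 1000 UMIs, 0.15 without other cells' markers and -1.80 at 1000 to 2000 UMIs. That of newly formed genes, 0.33, became 0.49 with TMM, -0.19 with at least 1000 UMIs, 0.11 with at least 3 of 8 markers, 0.17 without other cells' markers, 0.15 after thinning, -0.54 at 1000 to 2000 UMIs and 0.16 relative to genes of like abundance. That of the TGF-beta and BMP pathway became -0.65 at a minimum of 50 UMIs. Shares with a newly formed marker became 74.3% and 80.2% when thinned to 1000 UMIs and 87.2% and 84.7% without thinning, and those with a mature marker 44.5% and 54.0%, and 55.9% and 50%. Resolution 1 gave 13 clusters in place of 7. Of all alternatives, 111 list medians and 174 single-gene ratios moved by less than their counting interval and 10 and 18 by more. Of the alternatives for the other results, 34 were counted as moved and 8 as the same. Some lists had no member left to test under the stricter settings. CKO oligodendrocytes held 728425 UMIs against 1551112 in control, which limits what can be said of sparse genes.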
